A study of Homo sapiens with 6 samples.

Results

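The genes described here are 8 long noncoding RNAs (lncRNAs) known for nuclear retention, for genomic imprinting or for a regulatory role in the cytoplasm: *MALAT1*, *NEAT1*, *MEG3*, *MEG8*, *KCNQ1OT1*, *H19*, *NORAD* and *OIP5-AS1*. They were chosen by name from the 67060 genes of the count table, and the symbols of all 8 were matched. Of these, 7 had at least 1 count and 6 passed the filter on low counts, together with 24500 genes in all. *MEG8* passed through its counts in the control libraries. *NORAD* and *OIP5-AS1* are known mainly from the cytoplasm, and no cell fraction was separated here, so the levels are those of whole cells. SH-SY5Y cells, a human neuroblastoma line that the labels call a neuronal progenitor, were infected with an adenovirus. In 3 samples it carried GFP (Ad CMV GFP, replicates 1, 3 and 4), and in 3 others Flag-tagged *Esrrg* (Ad CMV 3xFlag-*Esrrg*, replicates 2, 3 and 4). *Esrrg* encodes the orphan nuclear receptor ERRγ. In both viruses the CMV promoter drives the transgene in every infected cell, and both groups stayed 24 h with virus before RNA was taken. Total RNA was depleted of rRNA and not selected for poly(A), so RNAs without a poly(A) tail could be counted.

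*MALAT1* and *NEAT1* are neighbouring genes whose RNAs stay in the nucleus, *MALAT1* in nuclear speckles that hold splicing factors and *NEAT1* as the scaffold of paraspeckles. Imprinted lncRNAs are made from the allele of 1 parent. *MEG3*, *MEG8* and *H19* come from the maternal allele and *KCNQ1OT1* from the paternal allele, where it runs antisense inside *KCNQ1* and is known for silencing its neighbours. *NORAD* binds Pumilio proteins, which repress mRNAs, and *OIP5-AS1* (also called Cyrano) is known for a site that leads to the decay of miR-7.

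The sequences below show how these RNAs end or what they bind. They were read on GRCh38. *MALAT1* and *NEAT1* end at a tRNA-like fold that RNase P and ELAC2 cut, so that their long nuclear forms carry no poly(A) tail. In *MALAT1* (chr11:65506057-65506174, plus strand) the capitals mark mascRNA, the tRNA-like product annotated by RefSeq. In *NEAT1* (chr11:65445484-65445597, plus strand) they mark the stretch most like it, which was identical to mascRNA at 40 of 57 aligned columns (70.2%). That stretch starts just past the annotated end of *NEAT1* (65445540), whereas the annotated *MALAT1* runs on beyond mascRNA to 65508073. Each is shown with the 60 bases before it. The longest run of A before the fold was 13 bases in *MALAT1* and 5 in *NEAT1*.
MALAT1 end: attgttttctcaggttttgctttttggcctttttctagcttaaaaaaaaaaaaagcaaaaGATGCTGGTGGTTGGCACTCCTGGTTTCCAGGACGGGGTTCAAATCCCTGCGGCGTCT
NEAT1 end: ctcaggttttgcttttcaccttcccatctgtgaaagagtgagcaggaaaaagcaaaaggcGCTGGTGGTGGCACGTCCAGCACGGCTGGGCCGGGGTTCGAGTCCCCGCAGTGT

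*NORAD* held 15 copies of the Pumilio motif TGTANATA, counted on the RNA strand, over its 5401 exon bases (2.78 per kb). *MALAT1* held 0 and *NEAT1* 6 (0.26 per kb). Of 19260 annotated transcripts of 4000 to 7000 bases, 42.2% held at least 1 copy, and 4 held as many as *NORAD* or more, the *NORAD* transcript included. The first, a middle and the last copy lie on the minus strand at chr20:36050182-36050211, chr20:36048477-36048506 and chr20:36046344-36046373, with the motif in capitals.
NORAD site 1: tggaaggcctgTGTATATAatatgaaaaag
NORAD site 8: gaataacacttTGTAAATAgcttttaaaaa
NORAD site 15: attagcctattTGTAAATAcctttgttata

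The longest *OIP5-AS1* transcript (8881 bases) held 3 matches to the seed of miR-7. Around 1 of them 23 of the 24 bases of the miRNA could pair in an alignment that allows gaps. The pairing at this site is not continuous, since the lncRNA has extra bases beside the seed match. That site lies at chr15:41300570-41300599 on the plus strand. Capitals mark the seed of miR-7-5p (bases 2 to 8, chr9:83969811-83969834, minus strand, sequence from RefSeq) and its match in the lncRNA. A match is a description of the letters and not a measured site.
OIP5-AS1 site: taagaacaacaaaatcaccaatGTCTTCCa
hsa-miR-7-5p: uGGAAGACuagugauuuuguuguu

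RefSeq promoter windows of 300 bases were found for 5 of the 8 genes (*MALAT1*, *MEG3*, *H19*, *NORAD* and *OIP5-AS1*). None of their 8 windows held AAGGTCA, the half-site that estrogen-related receptors are known to bind, on either strand, against 3.92% of 35116 windows over all genes. At that share 8 windows would mostly hold none, so the absence says little about these genes. No window was given for *NEAT1*, *MEG8* or *KCNQ1OT1*.

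*ESRRG* was higher with Ad CMV 3xFlag-*Esrrg* in every library (log2 fold change 3.02 ± 0.14 SE, adjusted p = 6.3e-07, edgeR quasi-likelihood test), which fits the labels. The virus carries the mouse coding sequence, and reads were aligned to the human genome. How many transgene reads were counted as *ESRRG* is therefore not known, and in these counts they cannot be told apart from those of the cells' own gene. The libraries held 24969759 to 29700980 counted reads with Ad CMV GFP and 26513620 to 40859666 with Ad CMV 3xFlag-*Esrrg*. Reads aligned outside annotated exons took 51.3 to 52.2% of all reads in the former and 46.6%, 31.6% and 29.5% in the latter (replicates 2, 3 and 4), so replicates 3 and 4 stood apart. The difference was -15.8 percentage points (exact permutation test, two-sided, p = 0.1, the smallest that 3 against 3 allows). Of 14 SH-SY5Y markers, *TH* and *CHGA* were at 0 in every library, and the summed level of the list was 899 to 959 CPM with Ad CMV GFP and 685 to 901 with Ad CMV 3xFlag-*Esrrg*. The same sums were 3832 to 3966 and 3191 to 3468 for 7 fibroblast markers, 7.64 to 8.23 and 6.03 to 7.07 for 6 glial markers, and 2.30 to 2.91 and 2.11 to 3.03 for 6 blood and epithelial markers, of which *HBB* and *KRT5* were at 0. All 31-base words of *CHGA* also stand on alternate contigs of GRCh38. Gene by gene, 4 of the 7 fibroblast markers were called lower and 0 higher (median log2 fold change -0.76), while *COL3A1*, which carries most of their sum, was at -0.04. Of 12 tested SH-SY5Y markers 3 were called higher and 4 lower (median -0.26). The part of these differences in the lncRNA results was not tested.

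CPM here are TMM-scaled counts relative to the counted reads of a library, and a gene was called where its Benjamini-Hochberg adjusted p was under 0.05 and its change at least 1.5-fold. By these rules 34.1% of all tested genes were called, 17.3% higher and 16.8% lower. Of the 13746 tested protein-coding genes 3555 were called higher and 1709 lower (median log2 fold change 0.12). Among the 5697 tested lncRNA genes 30.2% were called, 6.46% higher and 23.7% lower. That lean was not stable: 368 lncRNA genes higher and 1353 lower became 178 and 2221 with counted reads as the only scaling, and 289 and 249 with the share of reads outside exons as a covariate. Of the 6 members tested, 4 were called lower (*MALAT1*, *NEAT1*, *MEG8* and *KCNQ1OT1*), 0 higher, and *NORAD* and *OIP5-AS1* were not called. The median log2 fold change of the 6 was -0.85, against -0.32 over lncRNA genes and -0.10 over all tested genes. The libraries of both groups did not overlap in CPM for any of the 6, as for 45.6% of lncRNA genes and 58.1% of all genes. In bulk samples, fewer cells of a type and less RNA per cell cannot be told apart.

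**Figure D1:**
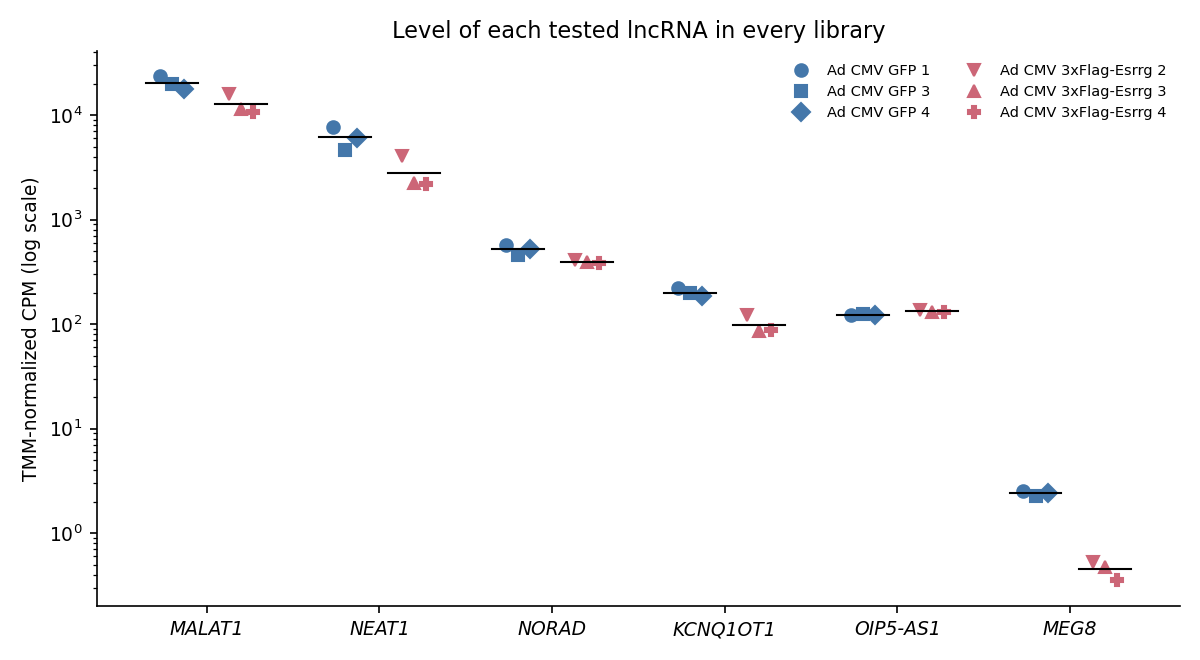
TMM-normalized CPM (log axis) of the 6 tested lncRNAs in each of the 6 libraries, Ad CMV GFP in blue and Ad CMV 3xFlag-*Esrrg* in red, with a bar at each group's mean. *MALAT1*, *NEAT1*, *NORAD*, *KCNQ1OT1* and *MEG8* lay lower in every Ad CMV 3xFlag-*Esrrg* library than in every Ad CMV GFP library, and *OIP5-AS1* lay slightly higher.

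Per kb of exon, the order of levels was the same in both groups. *MALAT1* was at 1954 ± 292 CPM per kb (mean ± SD, n = 3) with Ad CMV GFP and 1219 ± 279 with Ad CMV 3xFlag-*Esrrg*, and *NEAT1* at 269 ± 68.3 and 124 ± 45.8. *NORAD* followed at 96.7 ± 10.5 and 73.1 ± 2.27, and *OIP5-AS1* at 5.51 ± 0.0897 and 5.94 ± 0.155. *KCNQ1OT1*, which is spread over 92625 exon bases, was at 2.17 ± 0.198 and 1.07 ± 0.221, and *MEG8* at 0.0872 ± 0.00467 and 0.0164 ± 0.00322. No neighbours in this order overlapped within a group.

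*MALAT1*, the speckle lncRNA (chr11:65497640-65508073, plus strand, 1 exon), was the most abundant member. It took 2.68%, 2.18% and 1.98% of all counted reads in Ad CMV GFP replicates 1, 3 and 4, and 1.62%, 0.966% and 0.892% in Ad CMV 3xFlag-*Esrrg* replicates 2, 3 and 4. In CPM these were 23714, 19726 and 17728 against 16055, 11404 and 10698. The groups did not overlap, but Ad CMV 3xFlag-*Esrrg* replicate 2 lay nearer to the lowest Ad CMV GFP library than to the other libraries of its own group. The log2 fold change was -0.68 ± 0.20 (SE, adjusted p = 0.018, edgeR), 1.60-fold lower. The call rested on single libraries. It was lost without Ad CMV GFP replicate 1 (-0.56, adjusted p = 0.094) or replicate 3 (-0.70, adjusted p = 0.053), and without Ad CMV 3xFlag-*Esrrg* replicate 3 (-0.60, adjusted p = 0.072) or replicate 4 (-0.56, adjusted p = 0.070). Of its exon bases, 610 (5.8%) overlap a counted gene on the other strand, ENSG00000270117. That gene was at 0 in every library, but all of it lies inside *MALAT1*, where reads may have been set aside as ambiguous. *TALAM1*, a lncRNA on the other strand, shares 8121 bases with the *MALAT1* exon and is missing from the counts. The counts hold no sign that strands were kept apart, so its reads could be counted as *MALAT1*.

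*NEAT1*, the paraspeckle scaffold (chr11:65422774-65445540, plus strand, 1 exon), was at 7713, 4606 and 6064 CPM in Ad CMV GFP replicates 1, 3 and 4, and at 4024, 2239 and 2198 CPM in Ad CMV 3xFlag-*Esrrg* replicates 2, 3 and 4. The lowest library with Ad CMV GFP was close to the highest with Ad CMV 3xFlag-*Esrrg*, and the other 2 libraries of the latter lay well below. The log2 fold change was -1.12 ± 0.26 (adjusted p = 0.0051, edgeR), 2.17-fold lower. It was called with any single library left out (-1.36 to -0.92). Tested against a change of 1.5-fold in place of 0, the adjusted p was 0.060. The short and long forms of *NEAT1* share their start and were counted as 1 gene, so which form was lower was not measured.

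Among 26 tested genes for paraspeckle proteins, 9 were called higher and 0 lower, with a median log2 fold change of 0.38. Protein-coding genes as a whole leaned the same way, with 3555 of 13746 called higher, 1709 lower and a median of 0.12. *NONO*, a core protein of the particle, rose from 503, 597 and 580 CPM to 741, 1014 and 1098 (log2 fold change 0.76 ± 0.15, adjusted p = 0.0022). The call of *NONO* was lost with counted reads as the only scaling (0.43), with the share of reads outside exons as a covariate (0.23, adjusted p = 0.17) and without Ad CMV 3xFlag-*Esrrg* replicates 3 and 4 (0.41). *RBM14* rose by 0.64 ± 0.088 (adjusted p = 2.7e-04), but was below 1.5-fold with counted reads only (0.32), TMM over protein-coding genes (0.51), the GC and length correction (0.40) and the covariate (0.57). Among the largest called changes were those of *DAZAP1* (0.95 ± 0.10, adjusted p = 7.2e-05) and *FAM98A* (0.77 ± 0.12, adjusted p = 4.9e-04), which encode RNA-binding proteins. The other core proteins were not called, with *SFPQ* at 0.19 ± 0.11 and *PSPC1* at 0.18 ± 0.094. With counted reads as the only scaling the list's median was 0.051 and 1 gene was called higher, and *SFPQ* and *PSPC1* turned to -0.14 and -0.15.

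Of 21 tested genes for nuclear speckles and for the cutting of the *MALAT1* end, 7 were called higher and 0 lower (median 0.38). The largest changes were in genes for parts of RNase P, *POP7* (1.66 ± 0.20, adjusted p = 1.3e-04), *RPP25* (1.03 ± 0.18, adjusted p = 9.3e-04) and *POP1* (0.88 ± 0.12, adjusted p = 2.0e-04). *ELAC2*, which cuts the other end of mascRNA, rose by 0.82 ± 0.13 (adjusted p = 5.6e-04). *METTL16*, which binds the triple helix at the end of *MALAT1*, was not called (0.21 ± 0.095), and with counted reads as the only scaling was at -0.11. By that scaling the list's median was 0.054 and 2 genes were called higher. In the main fit, protein-coding genes as a whole had 3555 of 13746 called higher and 1709 lower (median 0.12). Nuclear RNA is degraded by the exosome, and of 22 tested genes for it and its cofactors 4 were called higher and 1 lower (median 0.083). With counted reads as the only scaling the balance turned, to 2 higher and 5 lower (median -0.24). *EXOSC4* (1.56 ± 0.18), *EXOSC5* (1.25 ± 0.20) and *EXOSC7* (0.89 ± 0.13) changed most among those called higher. *ZFC3H1*, which hands polyadenylated nuclear RNA to the exosome, fell from 235 to 263 CPM down to 101 to 151 CPM (-1.08 ± 0.15, adjusted p = 2.6e-04).

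**Figure D2:**
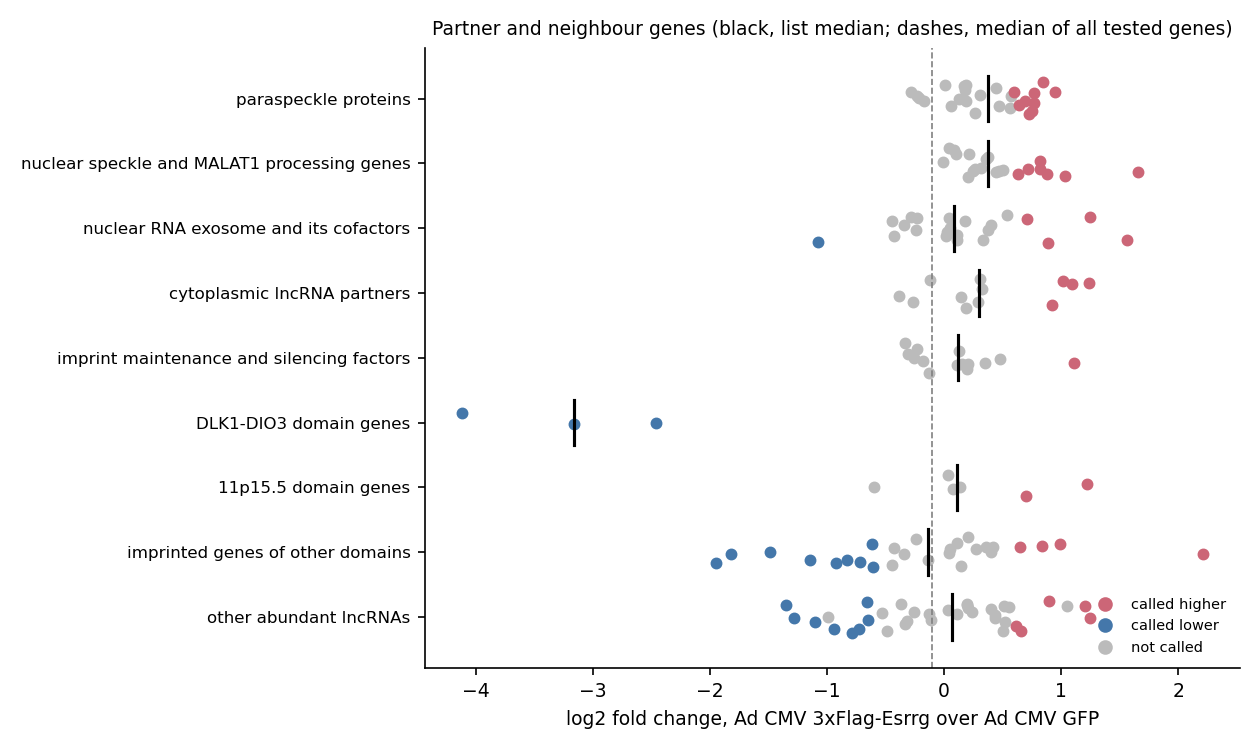
Log2 fold changes (Ad CMV 3xFlag-*Esrrg* over Ad CMV GFP) of the tested genes of each list, coloured by call, with a black bar at the list's median and a dashed line at the median of all tested genes (-0.10). The 26 paraspeckle and 21 speckle genes held called genes on the higher side only, and *DLK1* and *RTL1* lay below -2.

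*MEG8* (chr14:100894770-101038859, plus strand), a host of snoRNAs in the imprinted *DLK1*-*DIO3* domain, was the member with the largest change. It had 71, 70 and 80 counts with Ad CMV GFP and 14, 16 and 12 with Ad CMV 3xFlag-*Esrrg*, that is 2.52, 2.26 and 2.42 CPM against 0.524, 0.475 and 0.352 CPM. The groups lay far apart, replicate 2 of Ad CMV 3xFlag-*Esrrg* included. The log2 fold change was -2.42 ± 0.24 (adjusted p = 5.6e-05, edgeR), 5.34-fold lower. It was called in each of 21 alternative analyses of the same libraries (-2.74 to -1.95), some of which change only the cutoff. The 19 snoRNA genes inside its exons had 0 counts in every library. Reads that fall in exons of more than 1 gene can be set aside as ambiguous (4.5 to 9.8% of all reads here). These 0s are therefore not read as a measured absence of the snoRNAs. *MIR493HG*, a miRNA host whose exons share 2257 bases with those of *MEG8* on the same strand, had 9, 14 and 14 counts against 1, 1 and 1, a ratio of 0.079 (95% exact interval 0.016 to 0.25, counting error only).

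*MEG3* (chr14:100779410-100861031, plus strand), the first maternal lncRNA of the same domain, had 2, 0 and 2 counts with Ad CMV GFP and 0, 0 and 1 with Ad CMV 3xFlag-*Esrrg*. These are at or under 3 counts, which stand for 0.088 to 0.112 CPM in these libraries, so no change could be tested at this depth.

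The protein-coding genes of the domain, known to be made from the paternal allele, were lower too. *RTL1*, a retrotransposon-derived gene, had 1959, 2256 and 2541 counts with Ad CMV GFP and 223, 240 and 308 with Ad CMV 3xFlag-*Esrrg*. Its groups lay further apart than those of *MEG8*, at a log2 fold change of -3.16 ± 0.12 (adjusted p = 1.6e-07). *DLK1*, a Notch ligand homologue, had 121, 122 and 149 counts against 16, 23 and 34 (-2.46 ± 0.23, adjusted p = 3.3e-05). *DIO3*, a deiodinase that inactivates thyroid hormone, had 14, 10 and 16 counts against 1, 0 and 1, a ratio of 0.049 (95% interval 0.0057 to 0.19, counting error only). The lncRNAs *MEG9* (7, 1 and 9 counts against 0, 0 and 1) and *DIO3OS* (6, 6 and 16 against 0, 1 and 0) did not pass the filter on low counts, and their ratios were 0.057 (0.0014 to 0.37) and 0.035 (0.00085 to 0.21). These intervals, too, leave out the spread between libraries. *DIO3* passed the filter only through its counts with Ad CMV GFP, and with at least 10 counts asked of every library *RTL1* and *DLK1* were the 2 genes of the list left, both called lower. A transcript antisense to *RTL1* is known from the maternal allele, and the counts hold no sign that strands were kept apart. Of 404 lncRNA genes that lie wholly inside exons on the other strand 2.7% had any count, against 68.4% of 11345 lncRNA genes with no such overlap. Reads of *RTL1* and of RNA antisense to it therefore cannot be told apart.

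**Figure D3:**
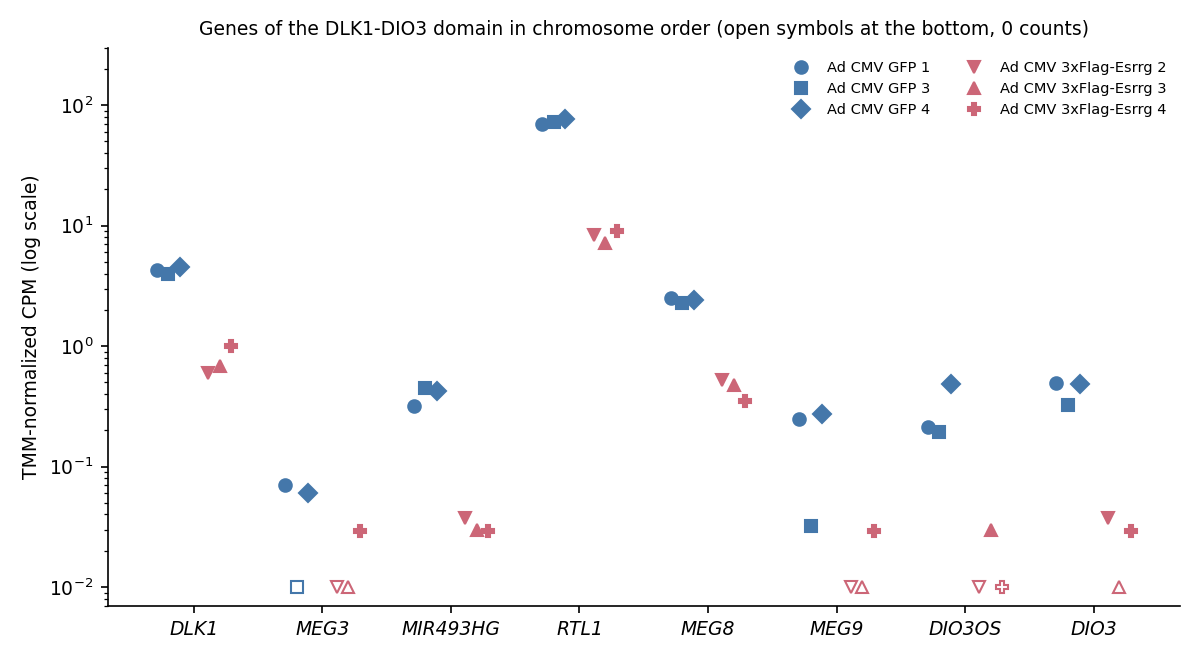
TMM-normalized CPM (log axis) of genes of the *DLK1*-*DIO3* domain on chromosome 14 in their order along it, 1 symbol per library, with open symbols at the bottom for 0 counts. *DLK1*, *MIR493HG*, *RTL1*, *MEG8*, *DIO3OS* and *DIO3* were lower in every Ad CMV 3xFlag-*Esrrg* library (red) than in every Ad CMV GFP library (blue), while *MEG3* was at 2 counts or fewer throughout.

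*KCNQ1OT1* (chr11:2597308-2700003, minus strand) had 6210, 6115 and 6088 counts with Ad CMV GFP and 3282, 2893 and 3022 with Ad CMV 3xFlag-*Esrrg*, which was 220, 198 and 184 CPM against 123, 85.9 and 88.7 CPM. The groups lay apart, with replicate 2 of Ad CMV 3xFlag-*Esrrg* the highest of its group. The log2 fold change was -1.02 ± 0.14 (adjusted p = 3.0e-04, edgeR), 2.02-fold lower, and it was called with any single library left out (-1.09 to -0.92). With a correction for GC content and exon length it was -0.58 ± 0.088 (adjusted p = 6.1e-04), below the 1.5-fold cutoff. All of its exon bases lie inside the body of *KCNQ1* on the other strand, mostly in introns, so unspliced *KCNQ1* RNA would be counted as *KCNQ1OT1*.

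Of 6 tested genes in the same imprinted region of chromosome 11, 2 were called higher and 0 lower (median 0.11), against 17.3% and 16.8% of all tested genes. With counted reads as the only scaling (median -0.22), and likewise with the GC and length correction (-0.22), there were 1 higher and 1 lower. *KCNQ1*, a potassium channel gene, had 24, 21 and 19 counts against 14, 24 and 30, and the groups overlapped (0.03 ± 0.31). *SLC22A18*, a transporter gene, was not called either (0.14 ± 0.26), and with counted reads as the only scaling these were at -0.31 and -0.20. *CD81*, a tetraspanin gene, rose by 0.70 ± 0.14 (adjusted p = 0.0024) and *TSSC4*, which encodes an snRNP assembly factor, by 1.22 ± 0.15 (adjusted p = 1.3e-04). *CDKN1C*, a cell cycle inhibitor gene known as a target of this silencing, had 6, 8 and 9 counts against 0, 5 and 6 and was not tested. Its ratio was 0.47 (95% interval 0.21 to 0.997, counting error only). That interval leaves out the spread between libraries, and the counts of the groups met at 6, so no decrease is read from it. *PHLDA2* had 1 count in all. Of the 31-base words in the exons of *CDKN1C* 92.3% also stand on alternate contigs of GRCh38, as do 90.4% of those of *SLC22A18* and all of those of *PHLDA2*. Whether the authors aligned to these contigs is not given in the sources used here.

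*H19* (chr11:1995166-2004552, minus strand), a maternal lncRNA and the host of miR-675, was listed at 0 in every library. So were the other protein-coding and lncRNA genes of the 176-kb stretch from *SYT8* to *H19* (11 of 11 genes, 6 of them protein-coding), among them *MRPL23*, which encodes a mitochondrial ribosomal protein that every cell uses. The 0 is therefore not read as a measured absence of *H19*. Its neighbour *IGF2*, a growth factor gene outside that stretch, had 5, 10 and 4 counts with Ad CMV GFP and 0 in every Ad CMV 3xFlag-*Esrrg* library, at least 2.15-fold lower against a floor of 3 counts per library.

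Of 14 tested genes for factors that keep or silence imprints, 1 was called higher and 0 lower, against 17.3% and 16.8% of all tested genes. *TRIM28*, a corepressor that protects imprints, rose from 213, 255 and 240 CPM to 407, 529 and 592 CPM (1.11 ± 0.14, adjusted p = 2.0e-04). *CTCF* was at 0.12 ± 0.092 and *DNMT1* at -0.13 ± 0.093, neither called, and with counted reads as the only scaling *CTCF* turned to -0.20. Imprinted genes of other domains went both ways, with 4 of 27 called higher and 9 lower (median -0.13), against 17.3% and 16.8% of all tested genes. With counted reads as the only scaling there were 2 and 12 (median -0.45), and with the GC and length correction 4 and 8 (median 0.085). *DIRAS3*, a Ras-like suppressor gene, rose by 2.21 ± 0.17, *BLCAP* by 0.99 ± 0.10 and *FAM50B* by 0.83 ± 0.15. *DDC*, which encodes the decarboxylase that makes dopamine, fell by 1.95 on the log2 scale (SE 0.19), *MEST*, a hydrolase-like gene expressed in mesoderm, by 1.14 (SE 0.13) and the lncRNA *HYMAI* by 0.92 (SE 0.26).

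*NORAD* (chr20:36045618-36051018, minus strand, 1 exon) was at 576, 463 and 527 CPM with Ad CMV GFP and at 408, 393 and 383 CPM with Ad CMV 3xFlag-*Esrrg*. The latter 3 lay close together and below the former 3. The log2 fold change of -0.40 ± 0.11 (adjusted p = 0.013, edgeR) passed the test but not the 1.5-fold cutoff. With counted reads as the only scaling it was -0.72 and was called. The test result rested on single libraries. The adjusted p (edgeR) was 0.080 without Ad CMV GFP replicate 1 (-0.33) and 0.063 without replicate 4 (-0.39). Without Ad CMV 3xFlag-*Esrrg* replicate 3 (-0.39) it was 0.0504. It stayed under 0.05 where any other single library was left out (0.0013 to 0.041). The GC and length correction gave 0.077 (-0.23), and the covariate fit gave 0.059 (-0.32).

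*OIP5-AS1* (chr15:41283958-41322392, plus strand) was at 123, 125 and 122 CPM with Ad CMV GFP and at 137, 132 and 130 CPM with Ad CMV 3xFlag-*Esrrg*. Replicates agreed closely in both groups and the groups did not overlap, yet the difference was small (0.11 ± 0.086, adjusted p = 0.32, edgeR) and not called, which does not show that the levels were equal. It was -0.21 with counted reads as the only scaling and -0.025 with TMM over protein-coding genes, and with the correction for GC content and exon length 0.40 ± 0.075 (adjusted p = 0.0019), still under 1.5-fold. Its exons share 759 bases with *OIP5* on the other strand, whose 28, 47 and 47 counts against 41, 53 and 47 overlapped between groups, and 195 bases with *NUSAP1*, which was not called either.

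Of 12 tested genes for known partners of these RNAs in the cytoplasm and in export, 4 were called higher and 0 lower (median 0.30). Protein-coding genes as a whole had 3555 of 13746 called higher and 1709 lower (median 0.12). With counted reads as the only scaling the median of the 12 was -0.026, and 4 were called higher and 2 lower. *ALYREF*, an mRNA export adaptor gene, rose by 1.24 ± 0.17 (adjusted p = 2.7e-04), *PRPF19* by 1.10 ± 0.13 (adjusted p = 1.4e-04) and *KHSRP* by 1.02 ± 0.14 (adjusted p = 2.7e-04). *ELAVL1*, the gene of the RNA-stabilizing protein HuR, rose by 0.92 ± 0.14 (adjusted p = 4.6e-04), but was below 1.5-fold with the share of reads outside exons as a covariate (0.41) and without Ad CMV 3xFlag-*Esrrg* replicates 3 and 4 (0.58). *PUM2*, which encodes a Pumilio protein, was at -0.39 ± 0.096 (adjusted p = 0.0073), below the fold cutoff.

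Relative to the Ad CMV GFP mean, *NEAT1* was at 0.657 in replicate 2 and at 0.365 and 0.359 in replicates 3 and 4, and *MALAT1* at 0.787, 0.559 and 0.525. *KCNQ1OT1* was at 0.612, 0.428 and 0.442. Replicate 2, with the highest share of reads outside exons of its group, was thus also the highest for these 3. *MEG8* (0.218, 0.198 and 0.147), *NORAD* (0.781, 0.753 and 0.734) and *OIP5-AS1* (1.11, 1.07 and 1.05) had the same replicate highest. On the log2 scale *MEG8* ranged from -2.20 to -2.77 relative to the Ad CMV GFP mean, a spread much like that of *KCNQ1OT1* (-0.71 to -1.22) and *MALAT1* (-0.34 to -0.93).

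**Figure D4:**
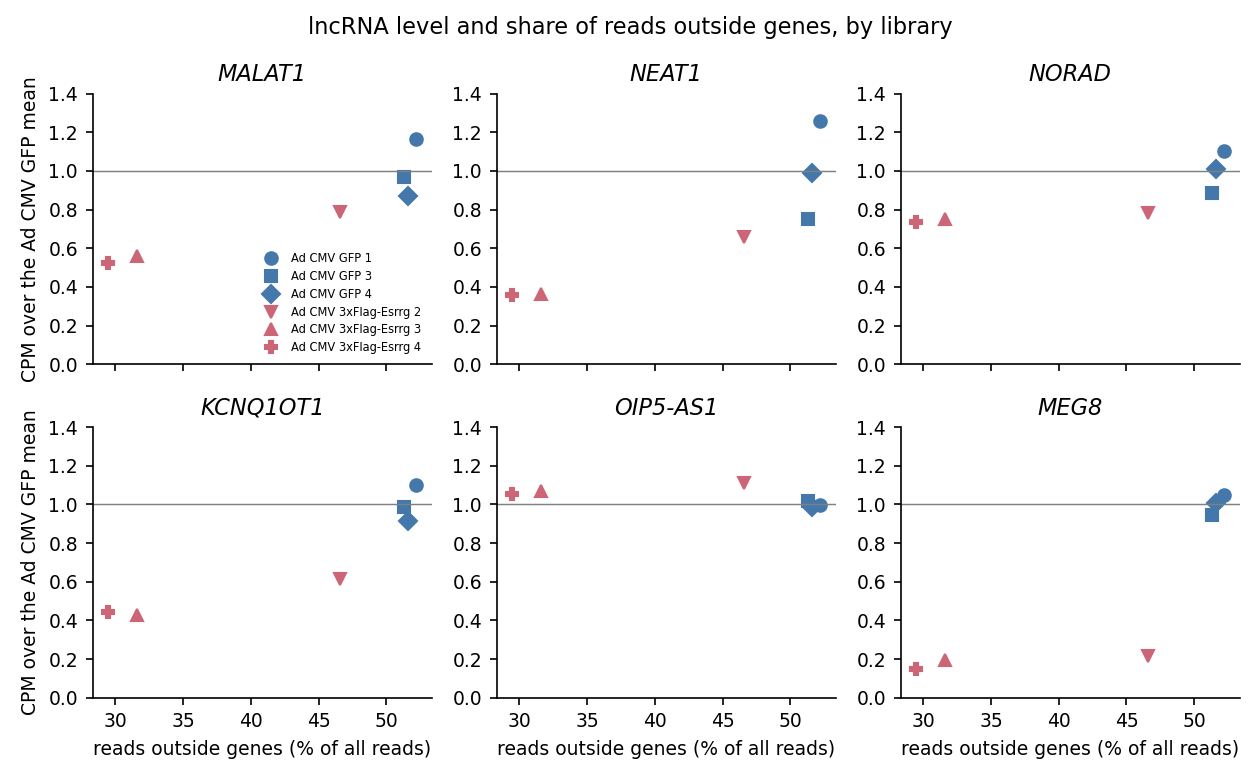
CPM relative to the Ad CMV GFP mean (vertical axis) against the percentage of all reads that lay outside annotated exons (horizontal axis), 1 panel per lncRNA and 1 symbol per library. For *MALAT1*, *NEAT1* and *KCNQ1OT1* Ad CMV 3xFlag-*Esrrg* replicate 2 lay between the Ad CMV GFP libraries and replicates 3 and 4. For *MEG8*, at 0.147 to 0.218, it was also the highest of its group but looks close to the others on this linear axis. On the log2 scale the spread of *MEG8* was much like that of *KCNQ1OT1* and *MALAT1*.

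With the share of reads outside exons as a covariate, *MEG8* was the 1 member still called (-2.03 ± 0.51, adjusted p = 0.0028). *KCNQ1OT1* was at -0.55 ± 0.12 (adjusted p = 4.5e-04), below 1.5-fold, *NEAT1* at -0.31 ± 0.18 (adjusted p = 0.24) and *MALAT1* at -0.16 ± 0.16 (adjusted p = 0.55). As the share itself differed between the groups in every library, it and the virus cannot be told apart. Without Ad CMV 3xFlag-*Esrrg* replicates 3 and 4, with replicate 2 assumed to vary like the controls, 3 members were called: *MEG8* (-2.18 ± 0.35), *KCNQ1OT1* (-0.70 ± 0.11) and *NEAT1* (-0.60 ± 0.18), whereas *MALAT1* was at -0.34 ± 0.13. The paraspeckle list then had 3 genes called higher, the speckle list 2, and the exosome list 3 higher and 1 lower. With the covariate each of these 3 lists had 1 gene called higher and 0 lower.

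**Figure D5:**
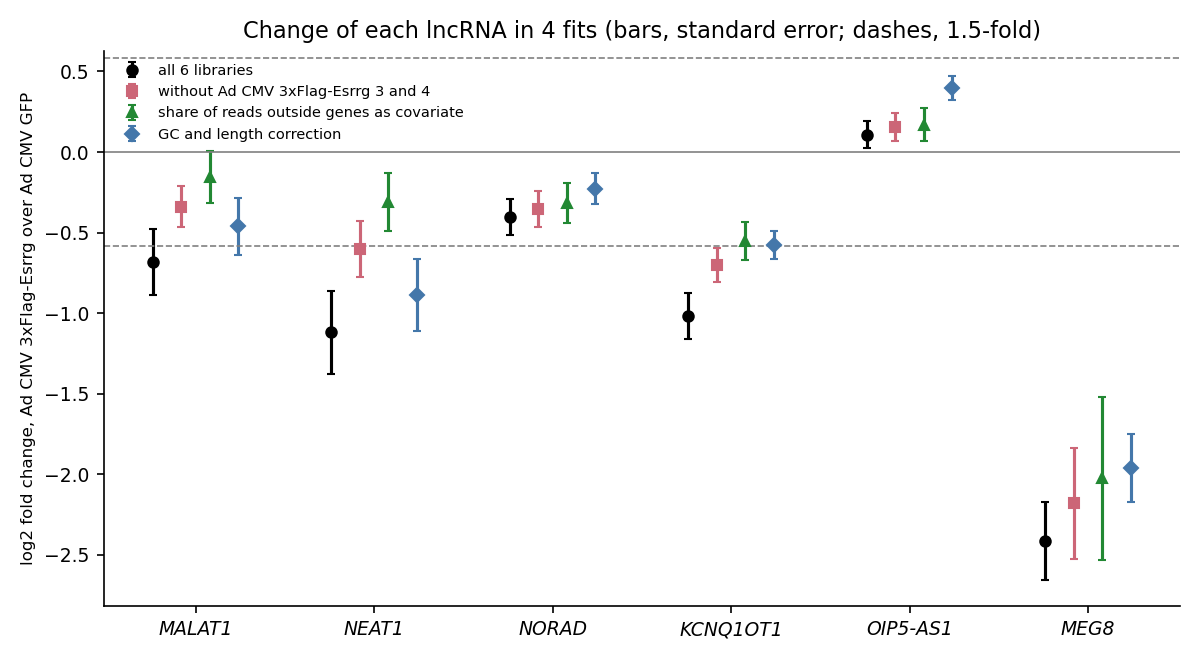
Log2 fold change (Ad CMV 3xFlag-*Esrrg* over Ad CMV GFP) with its standard error for the 6 tested lncRNAs, from all 6 libraries and from 3 alternative fits, with dashed lines at 1.5-fold. *MEG8* stayed at or below -1.96 in these 4 fits, *MALAT1* ranged from -0.68 to -0.16, and *OIP5-AS1* stayed above 0.

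The genes whose CPM followed a called member most closely over the 6 libraries, by the root mean square distance of centred log2 CPM among about 13379 genes, were *RSKR* for *MALAT1* (0.036) and *CCDC18-AS1* for *KCNQ1OT1* (0.035). *PRKCE-AS1* was nearest to *NEAT1* (0.10), and *ASPN* and *TMEM108-AS1* to *MEG8* (0.13 each). The second nearest were ENSG00000235121 for *MALAT1* (0.041), *PTPRB* for *KCNQ1OT1* (0.042) and *EGFR-AS1* for *NEAT1* (0.12).

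Other well-known lncRNAs of such cells went both ways, with 5 of 36 tested called higher and 8 lower, at a median of 0.07. Of all tested lncRNA genes 6.46% were called higher and 23.7% lower, at a median of -0.32. The balance depended on the processing, with 2 higher and 13 lower with counted reads as the only scaling (median -0.24), 9 and 6 with RLE size factors (0.14), and 13 and 4 with the GC and length correction (0.26). *SNHG15* (1.24 ± 0.12), *DANCR* (1.20 ± 0.14) and *SNHG29* (0.89 ± 0.19) rose most. *SNHG15* and *SNHG29* are host genes of snoRNAs. *LINC00632*, the host of the circular RNA CDR1as, fell from 4.72, 3.62 and 3.72 CPM to 1.95, 1.57 and 1.23 CPM (-1.35 ± 0.22, adjusted p = 6.3e-04). *HAND2-AS1* (-1.29 ± 0.11) and *MIAT* (-1.10 ± 0.12) were also lower, both by more than *MALAT1*.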

How the data were processed

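Per the labels, rRNA-depleted total RNA of 6 samples was sequenced. The submitters' processing notes name CASAVA, Trim Galore 0.6.7, STAR 2.7.9a, HTSeq 0.11.3, DESeq2 and GRCh38. The authors deposited raw counts per gene, and the annotation release and the strand setting of the counting are not given in the sources used here. Entries that name no gene (52.3 to 64.0% of all reads) were left out of library sizes. Positions and types came from GENCODE release 44, which matched 90.1% of identifiers. Nothing in the labels says that replicates were separate cultures, so p-values measure the spread between these samples, which may be technical.

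Counts were filtered with filterByExpr (24500 genes), scaled by TMM and tested with the quasi-likelihood test of edgeR 4.0.16 in R 4.3.3, on all genes. Standard errors (SE) were derived from the log2 fold change and its F statistic. Ratios of low counts have exact binomial intervals on the counts pooled over each group. They hold counting error only and not the spread between libraries. Scripts were tested on simulated data. The alternatives were DESeq2 1.42.0, other scalings, filters and fold cutoffs, leaving out each library, a replicate block, a GC and length correction (mgcv 1.9.3) and a covariate. Leaving out 2 libraries together was added after seeing the data. Python 3.11.15, Biopython 1.88 and matplotlib 3.10.9 were used for sequences and figures.

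The members and lists were chosen with earlier results of these data known. Named genes are the members, genes overlapping their exons, 20 neighbours and partners set by name, in each list the 3 genes called higher and the 3 called lower that moved most, given a mean count of 50 or more, and for each called member the 2 genes closest to it in pattern, given a mean count of 100 or more. A few genes named by this rule are not reported here. *ELAC2*, *MEG9*, *DIO3OS*, *MRPL23* and the markers at 0 were named after their values were seen.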

Additional observations from a re-analysis of the deposited data

How the results depend on the processing

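Of 21 alternatives, *MEG8* was called lower in 21, *NEAT1* in 19, *KCNQ1OT1* in 18 and *MALAT1* in 11, and no called member changed direction. These are not independent, as all use the same libraries. Those with no fold cutoff, a 2-fold cutoff or the test against 1.5-fold keep the main estimates, and the first of them cannot lose a call. The 4 called members became 2 when tested against 1.5-fold, 2 with the GC and length correction, 2 with that and the replicate block, 1 with the covariate and 3 to 4 with a library left out. *MALAT1* was at -0.68 where a 2-fold cutoff or the test against 1.5-fold was set, -0.46 with the GC and length correction, -0.50 with that and the replicate block, -0.16 with the covariate, -0.34 without Ad CMV 3xFlag-*Esrrg* replicates 3 and 4, and -0.78 to -0.56 with a library left out. *NEAT1* was at -1.12 when tested against 1.5-fold and -0.31 with the covariate. *KCNQ1OT1* was at -0.58 with the GC and length correction, -0.58 with that and the block, and -0.55 with the covariate. *NORAD* was called with counted reads only (-0.72) and with no fold cutoff (-0.40). *OIP5-AS1* turned to -0.21 with counted reads only and -0.025 with TMM over protein-coding genes. The cause was not tested.

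The 8351 called genes became 3934 with a 2-fold cutoff, 3594 tested against 1.5-fold, 3096 with the covariate and 4586 without replicates 3 and 4. The 1721 lncRNA genes became 947, 597, 538 and 867, and the 57 called list genes 23, 28, 21 and 33, or 99 with no fold cutoff. With a library left out these were 6738 to 10961, 1164 to 2389 and 50 to 76. Of all calls 50.7% were higher, against 22.5% with counted reads only (median of all genes -0.42), 37.4% with TMM over protein-coding genes (median -0.24) and 61.4% tested against 1.5-fold.

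The log2 fold change of *KCNQ1* (0.03) was -0.31 with counted reads only, -0.015 with all reads, -0.11 with TMM over protein-coding genes, -0.45 with the GC and length correction, -0.21 with that and the block, -0.61 with the covariate, -0.40 without replicates 3 and 4, and -0.15 to 0.30 with a library left out. That of *SLC22A18* (0.14) was, in the same order without all reads, -0.20, -0.0063, -0.37, -0.21, -0.47, -0.23 and -0.16 to 0.40. With counted reads only *SFPQ* was at -0.14, *PSPC1* -0.15, *METTL16* -0.11, *OIP5* -0.14 and *CTCF* -0.20, and *CTCF* was at -0.012 with TMM over protein-coding genes. *DNMT1* ranged from -0.17 to 0.019 with a library left out.

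Replicate numbers 3 and 4 are shared by both groups and nothing says that they pair the samples. Number 1 occurs only with Ad CMV GFP and number 2 only with Ad CMV 3xFlag-*Esrrg*. With the replicate block the log2 fold changes therefore came from replicates 3 and 4 alone, and 1 residual degree of freedom was left. Ad CMV 3xFlag-*Esrrg* replicate 2 did not bear on them. The log2 fold changes of this fit were -0.76 for *MALAT1*, -1.25 for *NEAT1*, -2.49 for *MEG8*, -1.13 for *KCNQ1OT1*, -0.35 for *NORAD* and 0.085 for *OIP5-AS1*, with 4 members, 10435 genes, 2341 lncRNA genes and 68 list genes called. Depth limits *MEG3*, at 2 counts or fewer in every library.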
